A study of Homo sapiens with 12 samples.

Results

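The genes described here are MYC and 33 genes that act in the nucleolus or build ribosomes, 34 in all. Members were the probe sets whose platform annotation carries one of these symbols. This gave 29 genes, each on 1 of the 21448 probe sets of the array. NOP56, DKC1, WDR43, BOP1 and GNL3 were not analysed here.

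The samples are 12 arrays of total RNA, 250 ng per array, from H1975 and PC-9, established lung adenocarcinoma cell lines with an EGFR mutation per the labels. All 4 groups had survived osimertinib, a drug that blocks the epidermal growth factor receptor. Tolerant H1975 and tolerant PC-9 cells had received 0.5 µM osimertinib for 1 week and were still alive on day 8. The other group of each line had then been given 100 µM SK-216, a compound given by code name alone, and held the cells alive 48 h later. Each group has 3 arrays. The SK-216 arrays are named as tolerant cells in their titles, but their source label speaks of naive ones. Day 8 is recorded for all 12 arrays, and no tolerant group is recorded as collected 48 h later. SK-216 and any added time therefore cannot be told apart. Nothing in the labels tells whether osimertinib stayed on during SK-216, or whether replicates are separate cultures. The spread behind the p-values is that among these arrays and may be technical.

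Ribosomes are made in the nucleolus, where RNA polymerase I copies the ribosomal DNA into one long precursor. Small nucleolar ribonucleoproteins modify that precursor, the small-subunit processome folds and cuts it, and separate assembly factors mature the large subunit. The transcription factor MYC pairs with MAX, binds the E-box CACGTG and is known for raising many of these genes in growing and cancer cells.

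Values are log2 signals on the array, differences are given in log2 units, and a fold is the ratio of signals that such a difference stands for. Signals of different probe sets are not set against each other. Array medians lay between 6.56 and 6.62. Across all probe sets the correlation was 0.9934 to 0.9953 for arrays of 1 group and 0.9274 to 0.9323 for arrays of different lines. As a guide to the level of genes that these cells should lack, 348 olfactory receptor probe sets were taken, with their median at 3.61 and their 95th percentile at 5.14. The epithelial keratins KRT8 and KRT18 averaged 16.13 and 14.30 in tolerant H1975 cells and 16.30 and 14.65 in tolerant PC-9 cells. The lines were less alike over the full list of 7 epithelial markers. All 7 were higher in PC-9, by 0.18 to 7.11 with a median of 2.85. NKX2-1, a lung lineage factor, averaged 4.17 to 5.10 over the 4 groups, PTPRC of leukocytes 3.78 to 4.11 and PECAM1 of endothelium 3.98 to 4.27, all below that percentile. The marker lists they come from also held brighter values. Their medians over all arrays were 4.22 for lung lineage, 5.20 for leukocyte and 4.085 for endothelial markers. Their 95th percentiles were 6.55, 12.23 and 7.33, so not every marker of these lineages was low.

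The first comparison asked how the members stood in the 2 tolerant lines. Most were lower in PC-9 than in H1975 cells, MYC by far the most. Of the 29 measured members 24 were lower in PC-9 and 1, FBL, was higher (limma, Benjamini-Hochberg adjusted p below 0.05 over all probe sets). Over all probe sets 22.7% were called lower and 21.3% higher. Earlier results of these data were known when the members and gene lists were chosen. Their counts, here and in the later comparisons, are therefore descriptions. The median difference of the members was -1.16, against 0.02 for all probe sets. Among the brighter 70% of probe sets, which hold all 29 members, 30.9% were called lower and 28.2% higher. For 23 members each PC-9 array lay below each H1975 array (25.3% of all probe sets), and for 1, FBL, the reverse held (25%). In bulk RNA, fewer cells that express a gene and less of its RNA per cell cannot be told apart.

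**Figure D1:**
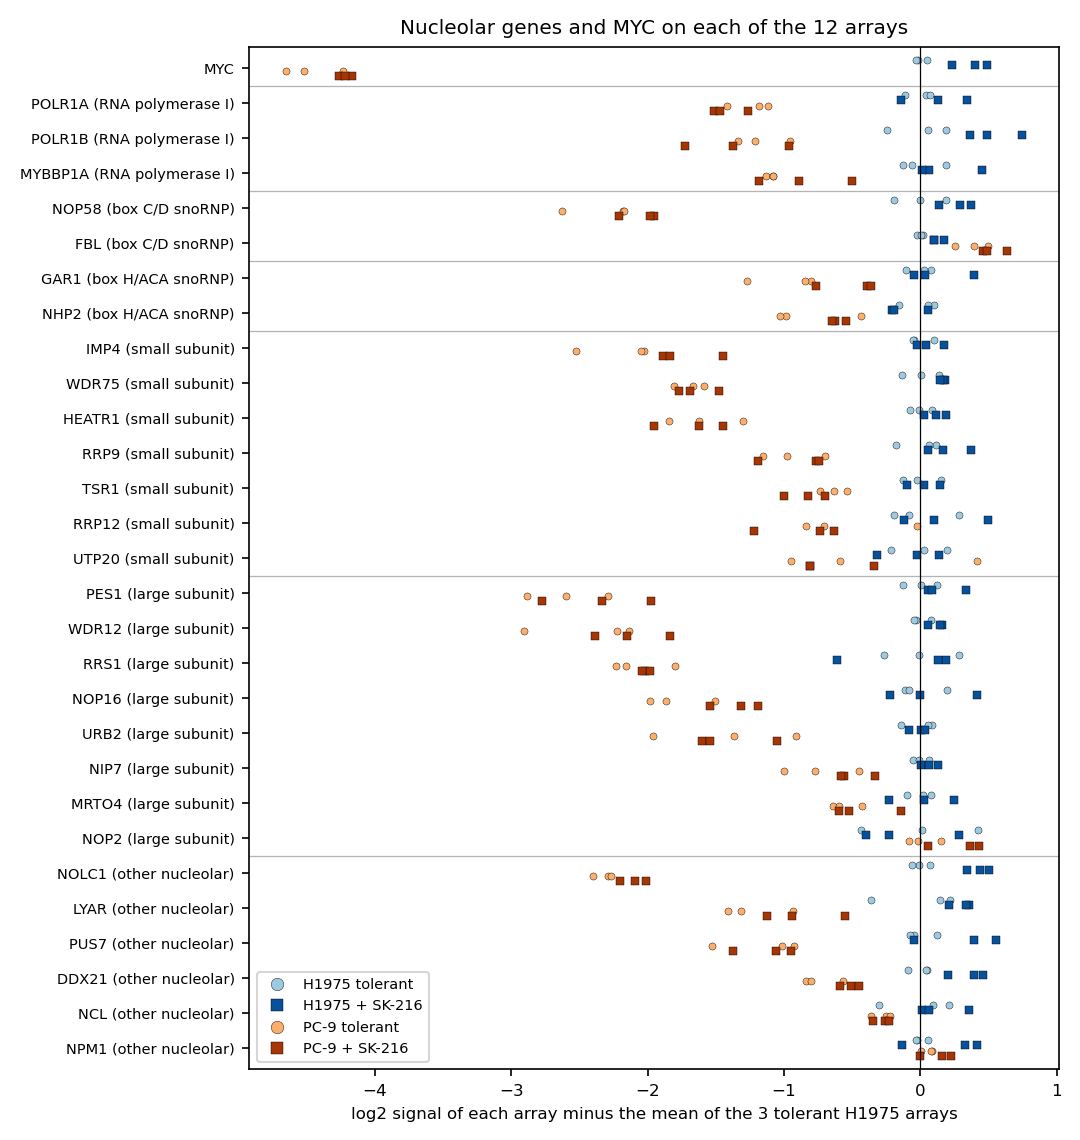
Each row is 1 member, grouped by role, and each point 1 of the 12 arrays; the horizontal axis gives the log2 signal minus the mean of the 3 tolerant H1975 arrays, with circles for tolerant and squares for SK-216 arrays, H1975 in blue and PC-9 in orange and brown. PC-9 points lie left of the H1975 points for most members, farthest for MYC, and right of them for FBL.

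MYC read 15.55, 15.62 and 15.54 in the tolerant H1975 arrays and 11.05, 11.34 and 10.92 in the tolerant PC-9 arrays. The ranges lay far apart. The PC-9 minus H1975 difference of -4.47 ± 0.10 (standard error, n = 3 per group) is a signal 22.1-fold lower in PC-9, with a limma adjusted p of 4.031e-21.

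Since these genes differed together between the lines, the E-box bound by MYC was looked for in RefSeq promoter windows of build GRCh38.p14. Each window runs from 250 bases before a gene's start to 50 bases after it, and 23 of the 29 measured members have at least 1 window. CACGTG, which reads the same on both strands, occurs in the windows of 12 of these 23 genes (52.2%). Of other ribosome biogenesis genes 31.5% hold it, and 8.77% of all genes with a window do. Among protein-coding genes with a named probe set the share is 10.8%, or 8.21% of their windows. Counted by window, the shares of the members, the other ribosome biogenesis genes and all genes are 41.4%, 28.2% and 7.26%. These members were picked as a group related to MYC, so the match is a description. UTP20, RRP9, NOP2 and PUS7 hold an E-box and are not printed. Of them, UTP20 and NOP2 were not called between the lines (limma adjusted p = 0.2339 and 0.9671). The 9 bases on either side of the E-box (in capitals) are printed for the other measured genes that hold one, on the strand of the gene.
FBL, chr19:39846359-39846382, minus strand: gctcttttcCACGTGcgaaagccc
GAR1, chr4:109815784-109815807, plus strand: ccagaggggCACGTGgcgccggtg
MYBBP1A, chr17:4555343-4555366, minus strand: gccggagcaCACGTGtttcgtgtt
IMP4, chr2:130342903-130342926, plus strand: tcccggaccCACGTGgaagcggca
PES1, chr22:30591883-30591906, minus strand: ttggcagggCACGTGcgggaggaa
MRTO4, chr1:19251810-19251833, plus strand: cttccgccgCACGTGgattcagcg
DDX21, chr10:68956607-68956630, plus strand: cgggtgtccCACGTGgtccccggc
LYAR, chr4:4290071-4290094, minus strand: cggcgagtcCACGTGctccccgcg

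In most of the members that hold an E-box, it sat close to the start. Taking the start base as position 0, it lay at 6 to 11 in FBL, 31 to 36 in GAR1, 27 to 32 in MYBBP1A and 13 to 18 in PES1. An E-box from position -10 onward occurred in 34.5% of the members' windows, 14.8% of those of other ribosome biogenesis genes and 1.22% of all windows. For protein-coding genes with a named probe set it was 1.29% of windows. IMP4 had a further E-box at -203 to -198. DDX21 and LYAR held theirs upstream, at -31 to -26 and -64 to -59. GAR1, IMP4, DDX21 and LYAR each have 2 windows in the table, for different starts, and CACGTG stands in only 1 of them, the one used here. The 250 bases before that start of DDX21 are shown in full because this gene also rose with SK-216 in H1975 cells, as given further on. No E-box was found for MYC or NOLC1, the other members called there, and not every member has a window. A link between the motif and the rise was not tested.
DDX21, chr10:68956397-68956646, plus strand: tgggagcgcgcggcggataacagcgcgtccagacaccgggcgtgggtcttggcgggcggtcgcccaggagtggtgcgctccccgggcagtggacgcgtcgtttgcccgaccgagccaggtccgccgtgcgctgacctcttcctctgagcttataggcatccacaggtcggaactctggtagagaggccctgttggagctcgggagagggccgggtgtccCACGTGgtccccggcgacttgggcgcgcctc

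By line difference the members with and without an E-box had similar medians. The 12 genes with one had a median difference of -0.96, and the 11 genes without one had -1.17. Their median SK-216 changes, taken from the comparisons that follow, were 0.14 with and 0.11 without an E-box in H1975, 0.22 and 0.04 in PC-9, and 0.18 and 0.10 averaged over both lines. These differences were not tested. FBL, the member that was higher in PC-9, holds an E-box as well. Of 3 further motifs, searched on both strands, the ETS-type CCGGAAG stood in 31% of the members' windows, 39.6% of those of other ribosome biogenesis genes and 10.3% of all. GCATGCGC stood in 3.45%, 6.71% and 3.05%, and CTCGCGAG in 6.9%, 4.03% and 1.02%. In windows of protein-coding genes with a named probe set these 3 motifs stood in 12.8%, 3.73% and 1.39%.

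NOP58 and FBL, the 2 measured members from the box C/D particles, which guide methylation of ribosomal RNA, differed between the lines in opposite directions. NOP58, their scaffold, read 12.47, 12.66 and 12.85 in tolerant H1975 and 10.03, 10.48 and 10.49 in tolerant PC-9 arrays. Its difference of -2.33 ± 0.13 makes it 5.02-fold lower in PC-9 (adjusted p = 2.027e-13). FBL, the methyltransferase fibrillarin, read 11.81, 11.77 and 11.80 in H1975 and 12.05, 12.29 and 12.19 in PC-9. It was 0.38 ± 0.10 higher in PC-9, 1.30-fold, and the groups did not overlap (adjusted p = 0.00239). GAR1 and NHP2, core proteins of the H/ACA particles that guide pseudouridylation, were lower in PC-9 by differences of -0.97 ± 0.15 and -0.82 ± 0.14 (adjusted p = 5.749e-06 and 3.059e-05).

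All 3 measured genes of the RNA polymerase I group were lower in PC-9. POLR1A and POLR1B, the large catalytic subunits, differed by -1.24 ± 0.13 and -1.17 ± 0.22 (adjusted p = 8.825e-09 and 7.031e-05). MYBBP1A, a nucleolar regulator of ribosomal RNA synthesis, read 9.60, 9.85 and 9.53 in H1975 against 8.53, 8.58 and 8.58 in PC-9. Its difference was -1.10 ± 0.17, with no overlap (adjusted p = 6.299e-06).

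Of the 7 measured small-subunit genes, 5 were called lower in PC-9 and none higher. IMP4, which helps join the processome's guide RNA to the precursor, read 11.20, 11.35 and 11.19 in H1975 and 9.22, 9.20 and 8.72 in PC-9. At -2.20 ± 0.15 it was 4.59-fold lower (adjusted p = 5.318e-12). The processome proteins WDR75 and HEATR1 followed, at -1.69 ± 0.11 and -1.59 ± 0.13 (adjusted p = 1.649e-12 and 2.221e-10). RRP9, a protein of the same guide particle, differed by -0.94 ± 0.19 (adjusted p = 0.0002109).

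TSR1, a late small-subunit assembly factor, stood at the small end of the called differences. It read 12.57, 12.75 and 12.47 in H1975 against 11.96, 12.06 and 11.86 in PC-9. The groups did not overlap, and the difference was -0.64 ± 0.11 (adjusted p = 2.571e-05). UTP20 and RRP12 were not called, at -0.37 ± 0.24 and -0.52 ± 0.25 (adjusted p = 0.2339 and 0.09567). For UTP20, 1 PC-9 array at 9.53 lay above all H1975 arrays, and the other PC-9 arrays read 8.17 and 8.53. RRP12 was dim in all groups, from 4.33 to 6.04 over the 12 arrays. Every H1975 array lay above the 95th percentile of the olfactory receptors, 5.14. Of the PC-9 arrays only tolerant array 1, at 5.52, did.

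The large-subunit factors had the lowest median of any role with more than 1 member, -1.60, and 7 of 8 were called lower in PC-9. PES1, which forms a complex with BOP1 and WDR12 that is needed to mature the large-subunit precursor, read 12.71, 12.59 and 12.46 in H1975. In PC-9 it read 9.99, 10.30 and 9.70, a difference of -2.59 ± 0.16 or 6.02-fold (adjusted p = 1.611e-12). Its partner WDR12 read 9.85, 9.74 and 9.73 in H1975 and 6.87, 7.55 and 7.64 in PC-9, 5.35-fold lower at -2.42 ± 0.19 (adjusted p = 6.37e-11). Both measured genes of that complex were therefore among the 4 lowest members, with MYC and NOP58.

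RRS1, NOP16, URB2 and NIP7, further assembly factors of that subunit, differed by -2.06, -1.78, -1.41 and -0.74. NOP16 read 10.27, 10.30 and 10.58 in H1975 and 8.40, 8.88 and 8.52 in PC-9, a gap wider than either range (± 0.17, adjusted p = 2.584e-09). MRTO4, another assembly factor, read 9.21, 9.27 and 9.09 in H1975 and 8.55, 8.76 and 8.59 in PC-9, with a small difference of -0.56 ± 0.16 (adjusted p = 0.006161). NOP2, a methyltransferase of large-subunit RNA, differed by 0.02 ± 0.23 with overlapping arrays (95% interval -0.46 to 0.49, adjusted p = 0.9671).

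Among the other nucleolar proteins, NPM1 and NCL stood close in both lines and the other 4 were lower in PC-9. NPM1, the chaperone nucleophosmin, differed by 0.06 ± 0.10 (95% interval -0.15 to 0.27, adjusted p = 0.7107); it has processed pseudogenes that array probes may not tell apart. NCL, nucleolin, read 15.29, 15.41 and 14.90 in H1975 and 14.95, 14.84 and 14.98 in PC-9. These ranges overlapped, and the difference of -0.28 ± 0.10 was called (adjusted p = 0.03452). That call was lost without tolerant H1975 array 1 or 2 or tolerant PC-9 array 1 or 2, with an adjusted p of up to 0.2378 and differences of -0.43 to -0.17 over all left-out arrays, and without the variance trend (0.1672).

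NOLC1, a phosphoprotein that chaperones nucleolar ribonucleoproteins, was 4.99-fold lower in PC-9, at -2.32 ± 0.10 (adjusted p = 6.273e-16). DDX21, an RNA helicase that links polymerase I transcription with processing, differed by -0.74 ± 0.09 (adjusted p = 3.028e-07). LYAR, a nucleolar zinc finger protein, and PUS7, a pseudouridine synthase, differed by -1.22 ± 0.17 and -1.16 ± 0.17 (adjusted p = 1.565e-06 and 4.247e-06).

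The same difference was present in the SK-216 arrays, which form a separate set of 6. There 25 members were called lower in PC-9 and 1 higher, against 22.2% and 21.6% of all probe sets, with a median of -1.17. The 2 sets of calls share 24 lower members and the 1 higher member. RRP12 was called lower only in the SK-216 arrays, at -1.02 ± 0.25 (limma adjusted p = 0.001327).

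**Figure D2:**
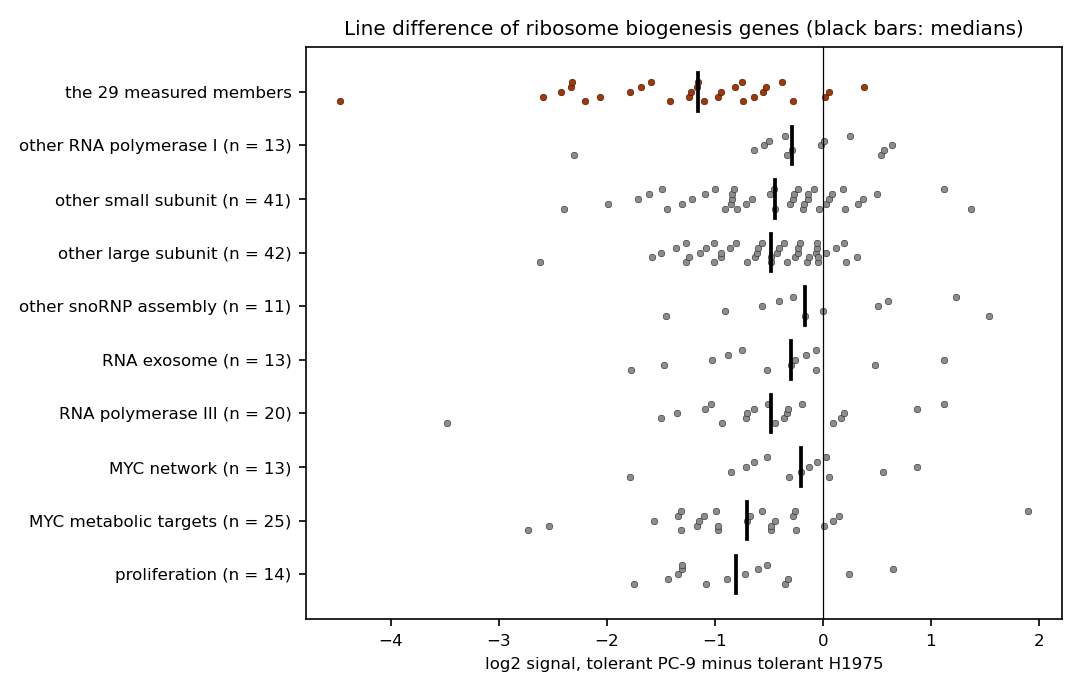
The horizontal axis gives the tolerant PC-9 minus tolerant H1975 difference in log2 signal, each point is 1 gene and each row 1 list, with a bar at the median. The members reach from -4.47 for MYC to 0.38 for FBL around a median of -1.16, and the medians of the other lists lie nearer to 0.

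By median, lists of other pathway genes also stood lower in PC-9, by less. Their counts of calls stand beside 22.7% lower and 21.3% higher over all probe sets. Among the brighter 70% of probe sets these shares were 30.9% and 28.2%. Of 150 other ribosome biogenesis genes 140 were measured, of which 74 were called lower and 15 higher, with a median of -0.38. Large-subunit factors gave 25 lower and 1 higher of 42, small-subunit factors 20 and 4 of 41, RNA polymerase III subunits and factors 12 and 2 of 20, and the RNA exosome 8 and 2 of 13. Polymerase I factors gave 5 lower and 2 higher of 13, with a median of -0.29. Other snoRNP proteins were even in their calls, 4 and 4 of 11, with a median of -0.17. Of 25 measured metabolic targets of MYC 21 were lower and 1 higher, with a median of -0.70. In the network of MYC partners and antagonists 5 of 13 were lower and 2 higher.

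Other groups of genes differed between the lines too. Of 14 proliferation genes 12 were lower in PC-9 and 1 higher, with a median of -0.80. Of 5 measured fibroblast markers 3 were called lower in PC-9 and none higher, with a median of -0.70. All 7 epithelial markers were higher in PC-9, with a median of 2.85, and per array their median ran from 12.68 to 13.09 in tolerant H1975 and from 15.26 to 15.31 in tolerant PC-9 cells. The part of these differences in the result was not tested.

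The second comparison asked what changed after SK-216 in H1975 cells. It uses the same tolerant arrays as the comparison of the lines. MYC, NOLC1 and DDX21 rose by 1.27-fold to 1.34-fold, and no member was called lower. These 3 of 29 members passed the adjusted threshold, against 3.8% of all probe sets, 1.44% higher and 2.35% lower. By sign alone, 24 members were higher and 5 lower, where 51.3% of all probe sets were higher. The members' median change was 0.13, against 0.01 for all probe sets. Epithelial markers changed in H1975 as well: of 7, EPCAM (0.77 ± 0.13), CLDN7 (0.62 ± 0.13) and KRT7 (0.33 ± 0.08) rose, and CDH1 (-1.55 ± 0.13) and KRT8 (-0.24 ± 0.06) fell. Per array their median ran from 12.68 to 13.09 before and from 12.41 to 12.79 after SK-216, and their part in the members' changes was not tested.

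**Figure D3:**
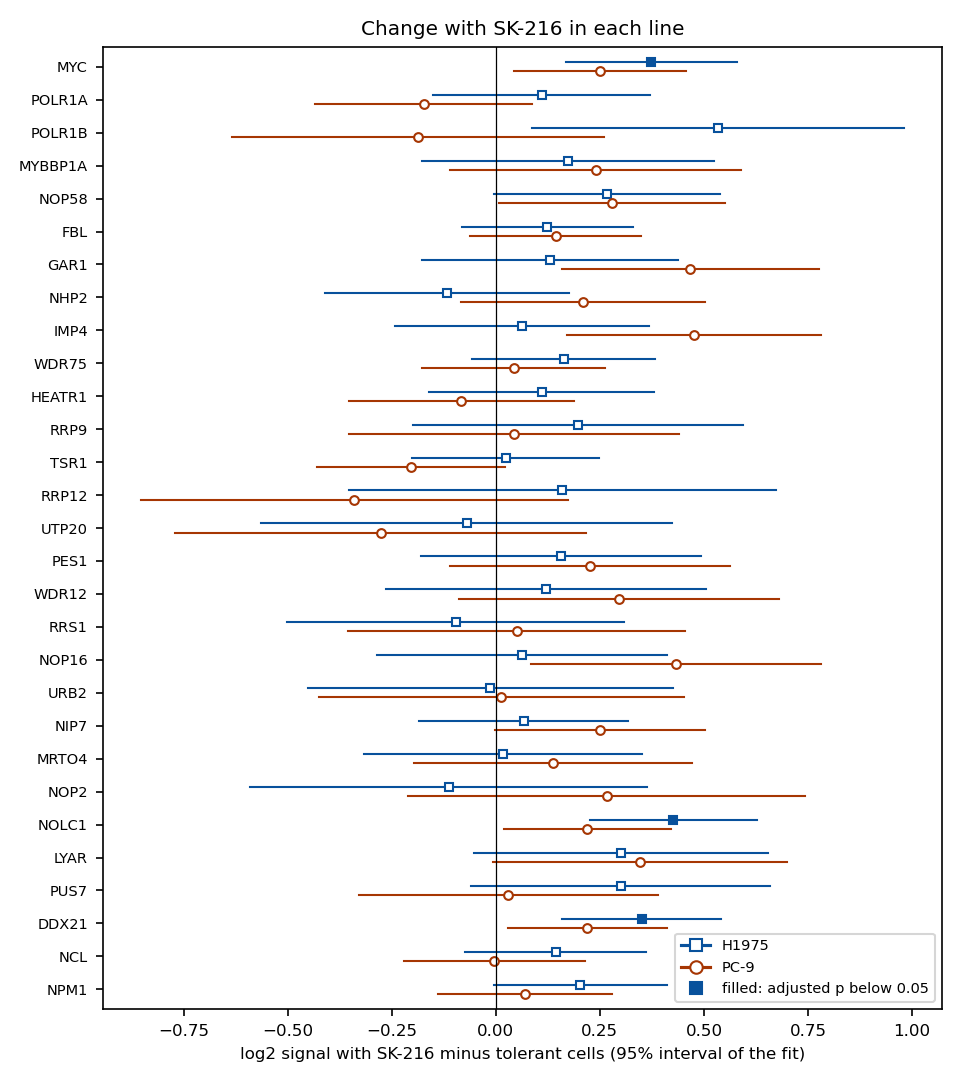
For each member the horizontal axis shows the change after SK-216 in log2 signal in H1975 and in PC-9, with the 95% interval of the limma fit. Most points lie to the right of 0 in both lines, and only MYC, NOLC1 and DDX21 in H1975 passed the adjusted threshold.

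After SK-216 MYC read 15.97, 15.80 and 16.06, above all 3 tolerant H1975 arrays. Its change was 0.37 ± 0.10, or 1.30-fold (adjusted p = 0.03292). NOLC1 went from 13.21, 13.29 and 13.16 to 13.66, 13.56 and 13.72, again without overlap. It rose by 0.43 ± 0.10, or 1.34-fold (adjusted p = 0.01044). DDX21 read 14.02, 14.01 and 13.88 in tolerant cells and 14.36, 14.17 and 14.43 after SK-216. Its groups did not overlap either, and the change was 0.35 ± 0.09, or 1.27-fold (adjusted p = 0.03164).

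These calls were close to the threshold. Without the variance trend none of the 3 was called (adjusted p = 0.2253 for MYC, 0.09317 for NOLC1, 0.2331 for DDX21), and with quantile normalization MYC was not (0.0618). Leaving out 1 array at a time ended the MYC and DDX21 calls for 5 of the 6 H1975 arrays. Without tolerant H1975 array 1, 2 or 3 or SK-216 array 1 or 3, the adjusted p of MYC was 0.1196, 0.06591, 0.1075, 0.1227 and 0.1685. For DDX21 it was 0.06705, 0.06357, 0.1391, 0.1238 and 0.1558. NOLC1 lost its call without tolerant array 3 (0.05338) or SK-216 array 3 (0.05998). All 3 changes stayed positive in every such fit, from 0.295 to 0.47 on the log2 scale.

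In 6 of 29 members every SK-216 array of H1975 lay above every tolerant array, against 8.95% of all probe sets, and in none below (9.56%). The other such members were FBL, WDR75 and POLR1B. POLR1B went from 7.33, 7.46 and 7.03 to 7.76, 8.02 and 7.64. Its change of 0.53 ± 0.22 was the highest estimate of all members and did not pass (adjusted p = 0.223). FBL and WDR75 changed by 0.12 ± 0.10 and 0.16 ± 0.11 (adjusted p = 0.6557 and 0.5461).

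**Figure D4:**
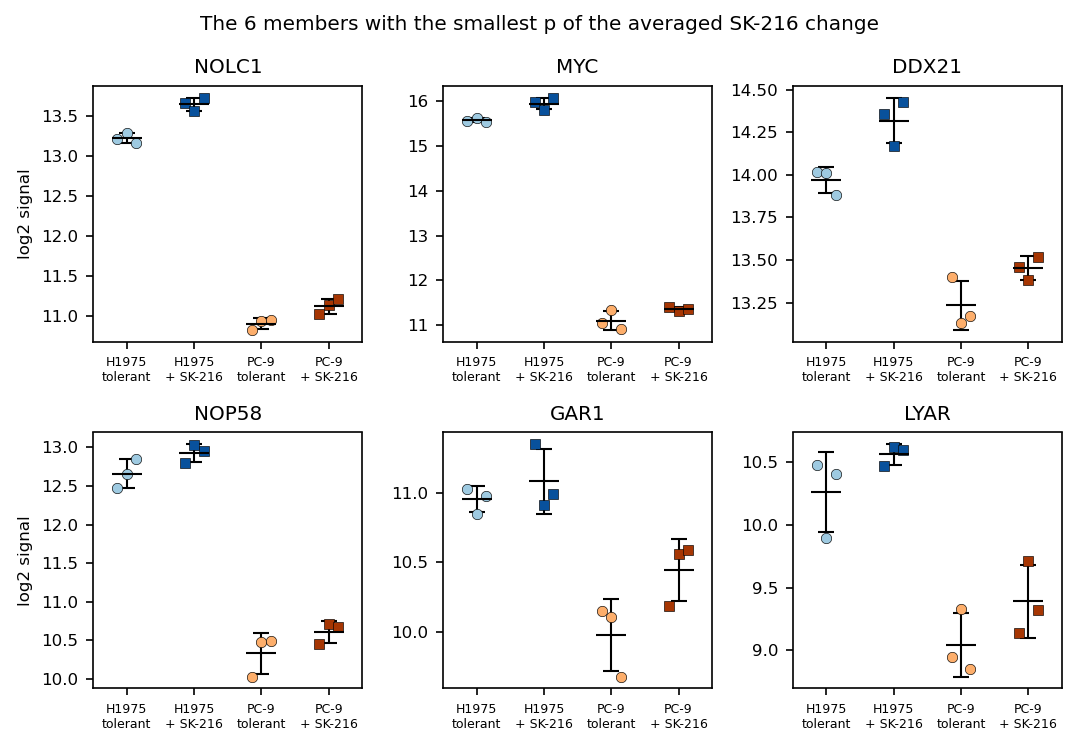
Each panel shows 1 of the 6 members with the smallest p for the change averaged over both lines, with the log2 signal of each of the 3 arrays per group as a point, and the group mean and SD as bars. MYC, NOLC1 and DDX21 in H1975 show SK-216 arrays above all tolerant arrays; NOP58, GAR1 and LYAR show overlapping arrays in H1975.

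In PC-9 cells no member passed the threshold after SK-216 (limma, 0 of 29, against 0.443% of all probe sets). At an unadjusted p below 0.05 there were 7 members, all higher, against 6.39% of all probe sets higher at that p. By sign 22 were higher and 7 lower, where 49.4% of all probe sets were higher, and the members' median was 0.14 against -0.00333 over all probe sets. GAR1, IMP4 and NOLC1 had every SK-216 array above every tolerant one, 3 of 29 members against 8.21% of all probe sets.

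MYC read 11.40, 11.31 and 11.35 after SK-216 in PC-9, and 1 tolerant array at 11.34 lay within that range. Its change was 0.25 ± 0.10 (95% interval 0.04 to 0.46, adjusted p = 0.3417), and it was 0.16 without tolerant PC-9 array 3 and 0.37 without tolerant PC-9 array 2. NOLC1 went from 10.82, 10.93 and 10.95 to 11.02, 11.13 and 11.21, a change of 0.22 ± 0.10 (adjusted p = 0.4042). DDX21 went from 13.40, 13.13 and 13.17 to 13.46, 13.38 and 13.52, also 0.22 ± 0.09, with overlap (adjusted p = 0.3778). The highest estimates in PC-9 belonged to other members.

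IMP4 read 9.80, 9.36 and 9.41 after SK-216 in PC-9, above its tolerant arrays, a change of 0.48 ± 0.15 (adjusted p = 0.195). GAR1 went from 10.15, 10.11 and 9.68 to 10.19, 10.56 and 10.59, or 0.47 ± 0.15 (adjusted p = 0.2098). In H1975 both estimates were smaller, 0.06 ± 0.15 and 0.13 ± 0.15. That difference did not pass for either gene (0.41 ± 0.21, adjusted p = 0.4254, and 0.34 ± 0.21, adjusted p = 0.5426). Of 14 proliferation genes 13 were higher by sign in PC-9, with a median change of 0.30, and 1 was called (limma). Over all probe sets 49.4% were higher and 0.443% called there. In H1975 it was 8 of 14, a median of 0.05, and 0 called. There 51.3% of all probe sets were higher and 3.8% called. The part of the proliferation genes in the members' values was not tested.

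The change averaged over both lines uses all 12 arrays. MYC, NOLC1 and DDX21 rose here as well, 3 of 29 members against 2.71% of all probe sets, 1.4% in the higher direction. MYC changed by 0.31 ± 0.07 (adjusted p = 0.01348), NOLC1 by 0.32 ± 0.07 (0.008531) and DDX21 by 0.28 ± 0.07 (0.01524). Leaving out 1 array at a time ended only the DDX21 call, without PC-9 SK-216 array 3 (adjusted p = 0.05018). Without the variance trend none of the 3 passed (0.1641, 0.08939 and 0.1808). This average shares its arrays with the within-line changes and adds no separate samples.

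The next members by p for the averaged change were NOP58, GAR1 and LYAR, none of which passed. NOP58 changed by 0.27 ± 0.09 (adjusted p = 0.137), with SK-216 arrays at 12.80, 13.03 and 12.95 in H1975 and 10.45, 10.71 and 10.68 in PC-9. GAR1 changed by 0.30 ± 0.11 (adjusted p = 0.1592). LYAR changed by 0.32 ± 0.12 (adjusted p = 0.1949). It read 10.48, 9.90 and 10.41 in tolerant and 10.47, 10.62 and 10.60 in SK-216 H1975 arrays, and 8.95, 9.33 and 8.85 against 9.14, 9.71 and 9.32 in PC-9. The tolerant and SK-216 arrays of LYAR overlapped in both lines.

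By sign, 18 of 29 members were higher after SK-216 in both lines, against 25.6% of all probe sets, and 1, UTP20, was lower in both, against 24.2%. The H1975 and PC-9 changes share no array. Roles differed in their medians. The other nucleolar proteins had median changes of 0.30 in H1975 and 0.15 in PC-9, and the large-subunit factors 0.04 and 0.24. The polymerase I genes stood at 0.17 and -0.17, and the small-subunit genes at 0.11 and -0.08. Within the last 3 roles the smallest averaged p belonged to NOP16 (0.25 ± 0.12, adjusted p = 0.3571), MYBBP1A (0.21 ± 0.12, 0.4836) and IMP4 (0.27 ± 0.10, 0.2175).

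Whether the change differed between the lines was tested directly. No member passed (limma, 0 of 29, against 1.42% of all probe sets). At an unadjusted p below 0.05 there was 1 member, POLR1B, against 12.7% of all probe sets. POLR1B read 6.31, 5.55 and 5.90 after SK-216 in PC-9 against 6.06, 5.94 and 6.32 before. Its change in PC-9 minus that in H1975 was -0.72 ± 0.31 (95% interval -1.35 to -0.09, adjusted p = 0.3131). For MYC this difference was -0.12 ± 0.14 (95% interval -0.41 to 0.17), for NOLC1 -0.21 ± 0.14 (-0.49 to 0.08) and for DDX21 -0.13 ± 0.13 (-0.40 to 0.14), so the intervals hold both 0 and changes as large as the ones measured.

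Of the 140 other ribosome biogenesis genes, 5 were called higher after SK-216 in H1975 and none lower, and in PC-9 none passed (limma). The H1975 share called, 3.57%, was near the 3.8% of all probe sets, and 1.44% of all probe sets were called higher. By sign 111 were higher in H1975 and 92 in PC-9, where 51.3% and 49.4% of all probe sets were, with medians of 0.13 and 0.06. For the change averaged over both lines 6 were called higher and none lower, 4.29% against 2.71% of all probe sets. The largest of these was POLR3G, at 0.51 ± 0.11 (limma adjusted p = 0.01298), above the averaged change of every member. Without the variance trend only POLR3G of these kept its call. RRN3, the initiation factor that brings RNA polymerase I to ribosomal DNA, read 11.81, 11.88 and 11.51 before and 12.19, 12.38 and 12.47 after SK-216 in H1975. It rose by 0.61 ± 0.11 (adjusted p = 0.001655), in every fit that left out 1 array. In PC-9 it went from 11.25, 11.18 and 11.29 to 11.04, 11.15 and 11.09, a change of -0.15 ± 0.11 (adjusted p = 0.6907).

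POLR3G, a subunit of RNA polymerase III found in stem and tumour cells, rose in H1975 from 9.82, 10.00 and 9.77 to 10.56, 10.54 and 10.62. Its change was 0.71 ± 0.16 (adjusted p = 0.01014), without its call only when tolerant H1975 array 1 or 3 was left out (up to 0.05883). In PC-9 its change was 0.30 ± 0.16 (adjusted p = 0.5074), and its line difference of -3.48 ± 0.16 was the lowest of the other ribosome biogenesis genes. PDCD11 and UTP4, processome proteins, rose in H1975 by 0.48 ± 0.13 and 0.34 ± 0.09 (adjusted p = 0.03224 and 0.042). NIFK, a large-subunit factor, rose by 0.37 ± 0.10 (adjusted p = 0.03517). The calls of PDCD11, UTP4 and NIFK were lost when 5, 8 and 4 of the 12 arrays were left out in turn, with adjusted p up to 0.1655, 0.1844 and 0.1856. PDCD11 without tolerant H1975 array 1, 2 or 3 or SK-216 array 1 or 3 was not called. NIFK was not called without tolerant array 1 or 2 or SK-216 array 2 or 3. UTP4 was not called without any 1 of the 6 H1975 arrays, PC-9 tolerant array 3 or PC-9 SK-216 array 1. Without the variance trend PDCD11, UTP4 and NIFK were not called (0.1098, 0.2127 and 0.1954), nor was NIFK with the H1975 arrays fitted alone (0.05099).

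In the other snoRNP and exosome lists nothing passed within a line. Their smallest averaged p belonged to SNU13, a box C/D core protein, and EXOSC9, an exosome subunit. SNU13 changed by 0.12 ± 0.10 in H1975 and 0.29 ± 0.10 in PC-9 (adjusted p = 0.7006 and 0.2776). EXOSC9 changed by 0.23 ± 0.12 and 0.44 ± 0.12 (adjusted p = 0.3643 and 0.112), and its averaged change of 0.34 ± 0.08 passed (adjusted p = 0.02232). That call was lost without the variance trend (0.1198) and without tolerant or SK-216 array 2 of H1975 (0.08122 and 0.06602) or of PC-9 (0.05409 and 0.05846).

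Among MYC's partners and antagonists, MXI1 was the only one of 13 called in H1975, and it rose. By sign 9 were higher and 4 lower. Of all probe sets 3.8% were called in H1975 and 51.3% were higher. MXI1 competes with MYC for MAX and represses E-box genes. It read 12.51, 12.17 and 12.32 before and 13.01, 13.09 and 12.95 after SK-216, a rise of 0.68 ± 0.12 (adjusted p = 0.001391), which was called whichever of the 12 arrays was left out. In PC-9 it changed by 0.01 ± 0.12 (adjusted p = 0.9904), and the difference between the lines of -0.68 ± 0.18 did not pass (adjusted p = 0.05551).

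Of the 25 measured metabolic targets of MYC, 1 was called in PC-9, against 0.443% of all probe sets. This was SRM, which makes spermidine, and it rose. It went from 9.55, 9.32 and 9.55 to 9.95, 10.21 and 10.12, a change of 0.62 ± 0.14 (adjusted p = 0.04811). In H1975 it changed by 0.21 ± 0.14 (adjusted p = 0.556). CCNA2, the S-phase cyclin A, was the 1 proliferation gene of 14 called in PC-9, higher by 0.42 ± 0.09 (limma adjusted p = 0.03833). In H1975 it changed by 0.16 ± 0.09. The SRM call was lost in 10 of the 12 fits that left out 1 array, all but those without tolerant H1975 array 2 or 3, with an adjusted p of up to 0.2614. The CCNA2 call was lost in 7, without tolerant H1975 array 2 or any 1 of the 6 PC-9 arrays, with an adjusted p of up to 0.1882. Without the variance trend neither passed (0.235 and 0.2379). The same held for SRM and CCNA2 with quantile normalization (0.09641 and 0.08251) and with the PC-9 arrays fitted alone (0.06735 and 0.05133).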

How the data were processed

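The members and gene lists were chosen with earlier results of these data known. Log2 signals, 1 per probe set and array, were used as deposited by the authors. Per the submitters' processing notes they were made with Transcriptome Analysis Console. Its version, the summarisation, the normalization and the genome build of the array: not given in the sources used here. Deposited log2 values ran from 2.19 to 18.61. Each group mean rests on 3 arrays. The standard errors pool the spread of all 4 groups and are moderated by that of other probe sets.

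The platform has 21448 probe sets, 17709 with 1 gene symbol in its annotation and 3739 unnamed here. Symbols were updated by Entrez identifier through a RefSeq table of GRCh38.p14, which also gave the promoters. Groups came from sample titles.

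Group means were estimated in 1 linear fit of the 12 arrays (limma 3.58.1, R 4.3.3, eBayes with a variance trend), checked on simulated data. It had 8 residual degrees of freedom and, at the median, 15.0 prior ones. Tests were two-sided, with Benjamini-Hochberg adjustment across the whole array and calls at an adjusted p below 0.05; errors are standard errors and intervals 95%. Figures were drawn with matplotlib 3.10.9 in Python 3.11.15.

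Described in full were MYC, members called for SK-216, the 6 with the smallest averaged p, the smallest p of each role, and the 4 highest and 4 lowest called line differences. Of other lists, up to 4 genes called for SK-216 in either line were named, or the 1 with the smallest p. Alternatives were no variance trend, robust eBayes, a replicate block, a filter on the dimmest 30%, quantile normalization, median centring, a threshold of 0.01, 1 line alone, and each array left out. The line difference in the SK-216 arrays was added after seeing the data. Planned protein features were not analysed here.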

Additional observations from a re-analysis of the deposited data

Results flagged for a closer look

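RRN3, the RNA polymerase I initiation factor, changed differently after SK-216 in the 2 lines. Its change in PC-9 minus that in H1975 was -0.76 ± 0.16 on the log2 scale (limma, adjusted p = 0.013). All 3 H1975 arrays after SK-216 lay above the tolerant H1975 arrays, and all 3 PC-9 arrays lay below the tolerant PC-9 arrays. The difference passed in all 12 fits that left out 1 array (adjusted p 0.01117 to 0.04642) and did not pass without the variance trend (0.114). RRN3 is outside the 29 members, none of which passed this test.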

How the results depend on the processing

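The counts of members called in H1975 and averaged over both lines, 3 each, fell to 0 and 0 without the variance trend, and to 0 and 1 at an adjusted p below 0.01. Over the fits without 1 array they ran from 0 to 3 and from 2 to 4. Over all probe sets, leaving out the trend took the calls from 814 to 448 and from 582 to 228. With quantile normalization the members' median difference between the lines was -1.08, and that of the PC-9 minus H1975 SK-216 change was -0.091 in place of 0.01. Without 1 array these medians ran from -1.16 to -1.07 and from -0.068 to -0.005, and the PC-9 median from 0.12 to 0.20. GAR1 in H1975, 0.13, stood at -0.00333 without SK-216 replicate 1 and reached 0.22 without SK-216 replicate 2. Same-numbered arrays of a line did not deviate together (correlations from -0.0912 to 0.0295), so the numbers were not taken as pairs; with the replicate block 1 member was called in H1975, NOLC1, and outside the members PDCD11, UTP4, SRM and CCNA2 lost their calls, as did EXOSC9 its averaged one (adjusted p from 0.0579 to 0.1003). The line difference kept its lower direction, with 23 to 25 members called lower, under every alternative run. With 3 arrays per group, changes of the size of most members' SK-216 changes were within the intervals of the fit.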
